A study of Mus musculus with 6 samples.

Results

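The genes described here were the solute carrier (Slc) genes with signal in mouse Tc1 and Tc17 CD8+ T cells, outside the glucose (Slc2a), monocarboxylate (Slc16a) and mitochondrial (Slc25a) families. Membership was chosen by measured level. A gene was taken when its platform symbol began with Slc and a digit and its mean over the 3 Tc1 arrays or over the 3 Tc17 arrays was at least 8 on the log2 intensity scale, with the brightest probe set standing for the gene. This kept 104 of 289 genes. Both groups reached the level in 95 of them, 9 reached it in Tc17 alone and 0 in Tc1 alone. Just inside lay Slc38a6 (8.05 in its higher group), Slc22a5 (8.08) and Slc35a1 (8.13), and just outside Slc46a1 (7.96), Slc35a2 (7.96) and Slc12a9 (7.93).

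The values came from 6 Affymetrix arrays, 3 per group. Naive CD8+ T cells from mouse spleen were stimulated with antibodies to CD3 (1 µg/ml) and CD28 (3 µg/ml) for 4 days. Tc1 cultures received IL-12 and Tc17 cultures IL-6 with TGF-beta for 3 days, and both had IL-2 for 1 further day. The labels state neither strain, age and sex of the mice nor whether animals were pooled. Each group had biological samples 1 and 2 and a technical array read as a repeat of sample 2, so n was 2 per group. The p-values below set the group difference against the spread between these samples, drawn toward the typical spread of all probe sets. The ± values below are limma's standard errors (SE), which use that same drawn spread and not that of the 2 samples alone. The cytokine genes set against the labels went with them: Il17a measured 6.32 in Tc1 and 11.53 in Tc17, and Ifng 13.00 and 7.51 (log2, means of 2 samples). The 6 measured T cell markers, Cd8a and Cd3e among them, had group means between 11.66 and 13.05, and none passed the test below. Cd4 measured 7.05 in Tc1 and 6.99 in Tc17. No erythroid marker was measured under a single symbol. Of 7 macrophage and monocyte markers 1 was called, Lyz2 (5.44 to 8.97, a difference of 3.53). Csf1r (0.28), Adgre1 (0.38) and Cd14 (0.25) also had all Tc17 arrays above all Tc1 arrays, without a call. Itgam (0.09), Fcgr1 (0.03) and Cd68 (−0.14) had overlapping arrays, with Cd68 at 9.99 in Tc1 and 9.85 in Tc17. The summed log2 level of the 7, Lyz2 included, was 42.7 to 44.0 on the Tc1 arrays and 47.0 to 48.1 on the Tc17 arrays. Of the 7, 3 (Adgre1, Cd14 and Fcgr1) stayed under the median of each of the 6 arrays. The natural killer (2), neutrophil (3) and dendritic cell (4) markers gave no call, and all but Itgax of the last were also under those medians. Of 4 B cell markers none was called; Cd79b had group means of 9.80 and 10.32. The part of such cells in the differences below was not tested.

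Solute carriers move nutrients, ions and metabolites across membranes, many of them by coupling to sodium, proton or chloride gradients. Activated T cells depend on amino acid uptake, above all through the pair of Slc7a5, the light chain of the large neutral amino acid exchanger LAT1, and Slc3a2, its heavy chain CD98. Others supply metals, phosphate, vitamins and nucleosides, and set cell volume and pH. Not every solute carrier sits at the cell surface. By their usual place, 42 of the 104 were assigned to the plasma membrane, 46 to internal membranes such as the lysosome and Golgi, 6 to both and 10 to neither. The name plasma membrane carriers therefore does not hold for all genes that the rule chose. It also took in 3 genes that encode no carrier: Slc9a3r1, a scaffold protein, Slc4a1ap and Slc7a6os.

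Few differences between Tc17 and Tc1 passed the test. In limma's moderated test over all 41345 probe sets, 4 of the 104 genes passed a Benjamini-Hochberg adjusted p of 0.05 as higher in Tc17 and 0 as lower: Slc15a1, Slc41a3, Slc49a4 and Slc4a8. Of all probe sets 418, or 1.01%, were called, 0.636% higher and 0.375% lower. Among the 8172 genes that reached the same level it was 2.08% higher and 1.41% lower, against 3.85% and 0% of the Slc genes. Of the 4, Slc41a3 reached the level in both groups. The other 3 reached it through Tc17 alone, a way of passing that requires a difference, so the count is a description. Among the 95 genes at the level in both groups 1 was called, which is 1.05%, against 0.920% higher among all 7499 such genes. An unadjusted p under 0.05 was found for 25 genes with higher and 7 with lower values in Tc17. The same held for 1228 higher and 981 lower of the 8172 genes at the level, and for 13.3% of all probe sets in either direction. The Slc counts thus leaned more to the higher side. Of the 25, 7 reached the level in Tc17 alone. Among genes at the level in both groups the counts were 18 higher and 7 lower of 95, against 936 and 810 of 7499. The count of 4 depended on how the samples were used. With the technical array taken as a repeat of sample 1, a reading the labels do not exclude, 12 genes were higher and 4 lower, the 4 named above among the 12. With any one sample left out, 0 to 1 were called: Slc15a1 without either Tc1 sample, and no gene without Tc17 sample 1 or without Tc17 sample 2.

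The promoters of the 4 called genes are shown because these are the carriers whose level passed the test. They are the 250 bases before the RefSeq start on build GRCm38.p6, 5′ to 3′ on the gene's own strand. Capitals mark matches on either strand to any of 6 motifs: TTCNNNGAA (STAT factors), GCGTG (aryl hydrocarbon receptor), AGGTCA (ROR nuclear receptors), TGANTCA (AP-1), CACGTG (the E-box of MYC and TFEB) and TGATGNAA (amino acid response).
Slc15a1 (chr14:121505255-121505504, minus strand): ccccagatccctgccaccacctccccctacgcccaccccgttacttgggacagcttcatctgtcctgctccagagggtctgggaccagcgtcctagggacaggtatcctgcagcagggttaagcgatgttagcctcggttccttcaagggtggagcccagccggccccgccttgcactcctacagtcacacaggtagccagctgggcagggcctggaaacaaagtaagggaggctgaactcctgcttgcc
Slc41a3 (chr6:90618996-90619245, plus strand): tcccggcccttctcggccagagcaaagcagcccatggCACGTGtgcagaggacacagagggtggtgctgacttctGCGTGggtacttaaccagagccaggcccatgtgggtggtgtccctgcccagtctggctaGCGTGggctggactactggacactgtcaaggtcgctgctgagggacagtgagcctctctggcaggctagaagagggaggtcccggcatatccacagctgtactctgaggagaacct
Slc49a4 (chr16:35769371-35769620, minus strand): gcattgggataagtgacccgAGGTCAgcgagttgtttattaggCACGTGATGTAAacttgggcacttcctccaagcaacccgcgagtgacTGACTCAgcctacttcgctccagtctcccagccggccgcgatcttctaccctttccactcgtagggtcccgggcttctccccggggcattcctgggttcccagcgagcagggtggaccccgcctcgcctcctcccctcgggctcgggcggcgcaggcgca
Slc4a8 (chr15:100761497-100761746, plus strand): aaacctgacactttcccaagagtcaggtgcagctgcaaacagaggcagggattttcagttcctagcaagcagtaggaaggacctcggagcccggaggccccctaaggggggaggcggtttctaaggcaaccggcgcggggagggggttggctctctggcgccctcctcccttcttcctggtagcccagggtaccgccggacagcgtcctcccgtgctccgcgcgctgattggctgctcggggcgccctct
The Slc49a4 window held an E-box 207 bases before the start, and the amino acid response letters overlap its last bases and begin 203 bases before the start. It also held AGGTCA at 230 and TGACTCA at 160 bases before the start. In Slc41a3 the window held CACGTG at 213 and GCGTG at 175 and 116 bases before the start. The windows of Slc15a1 and Slc4a8 held none of these letters. Of all 32851 promoter windows of this length, 7.02% held the STAT motif, 28.2% GCGTG, 14.0% AGGTCA, 6.75% the AP-1 motif, 6.02% CACGTG and 3.45% the amino acid response motif. Among 109 windows matched to 82 of the Slc genes chosen by level, 45.0% held GCGTG and 13.8% CACGTG. There the STAT motif was in 7.34%, AGGTCA in 13.8%, the AP-1 motif in 4.59% and the amino acid response motif in 3.67%. Matches to GCGTG and CACGTG were thus not particular to the called genes. A match is no evidence of binding, and the start used in these cells was not measured.

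Slc15a1 encodes the proton-coupled peptide transporter PepT1, known from the intestinal brush border. Its probe set 17309557 measured 7.71 in Tc1 sample 1, 6.59 in sample 2 and 6.53 on the technical array. In Tc17 the same arrays gave 11.03, 10.90 and 10.87. The groups lay far apart, and in Tc1 sample 1 stood above sample 2. The log2 difference was 3.83 ± 0.39 (limma's SE, n = 2 per group), 14.2-fold, with a limma adjusted p of 0.0357. It was the largest difference among the 104 genes. The call ended without Tc17 sample 1 (limma adjusted p = 0.187) or Tc17 sample 2 (0.14), with differences of 3.75 and 3.90, and held without Tc1 sample 1 (difference 4.40, adjusted p 0.0289) or Tc1 sample 2 (3.25, 0.03). The other 3 called genes lost the call without any one of the 4 samples, at adjusted p of 0.116 to 0.24.

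Slc41a3, of the magnesium transporter family, measured 8.21, 8.27 and 8.37 on the Tc1 arrays of sample 1, sample 2 and the technical repeat, and 9.15, 9.16 and 9.08 on the Tc17 arrays. The arrays of each group lay close together and the groups did not overlap. The log2 difference was 0.87 ± 0.08 (SE, n = 2 per group; limma adjusted p = 0.0293), 1.83-fold. Its relatives had differences above 0 that did not pass: Slc41a1, a plasma membrane magnesium carrier, 0.58 (adjusted p = 0.218) with separate arrays, and Slc41a2 0.39 (0.56) with overlapping ones. All 3 measured Slc41 genes thus had values on the same side, and 1 was called. Slc41a2 reached the level in Tc17 alone, which fixes the sign of its difference.

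Slc49a4, the gene of a lysosomal membrane protein also called DIRC2, rose 1.75-fold. It measured 7.37, 7.44 and 7.30 in Tc1 and 8.20, 8.18 and 8.14 in Tc17, a difference of 0.81 ± 0.07 (SE, n = 2 per group; limma adjusted p = 0.0274). Slc4a8, a sodium-driven chloride-bicarbonate exchanger that raises cell pH, measured 7.54, 7.50 and 7.55 against 8.28, 8.17 and 8.21. Its difference was 0.70 ± 0.08 (limma adjusted p = 0.0429), 1.63-fold. The adjusted p of Slc4a8 was 0.061 without the technical arrays, 0.0509 with arrays centred on their medians and 0.0732 with trended and robust moderation, so that its call ended there. In both genes the arrays within a group were close and the groups separate.

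**Figure D1:**
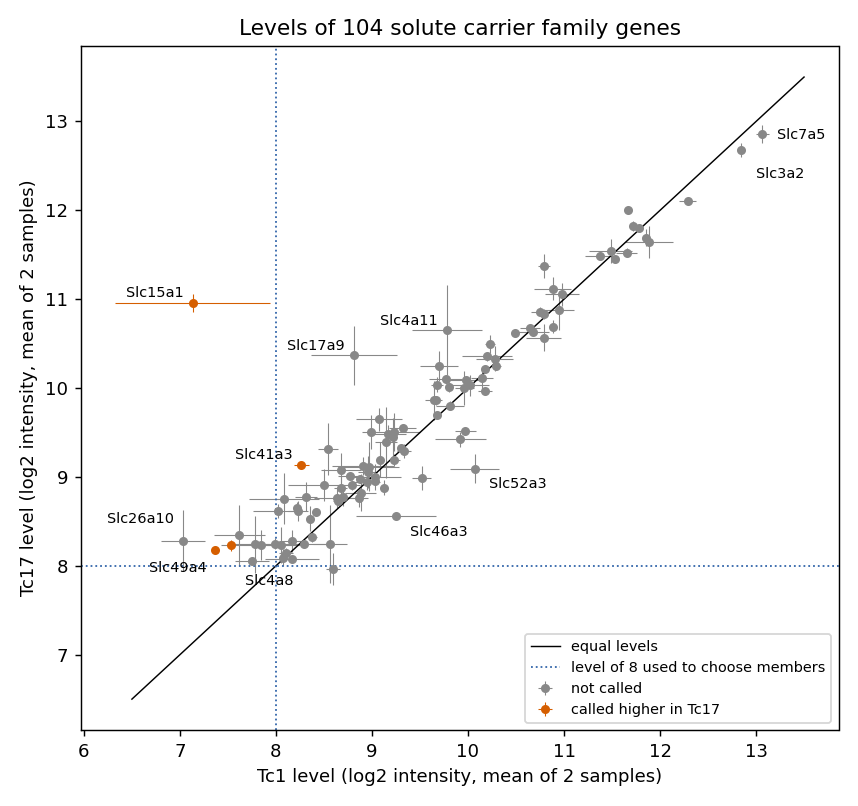
Mean log2 intensity in Tc17 (vertical axis) against Tc1 (horizontal axis) for the 104 genes, with bars of 1 SD over 2 samples; dotted lines mark the level of 8 used to choose genes and the solid line equal levels. Most points lie along the line, Slc15a1 stands at 7.13 and 10.96, and Slc52a3 and Slc46a3 lie below the line; intensities of different probe sets do not rank transcripts.

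Most of the 104 genes differed little. The difference was smaller than 0.5 in size for 85 genes (81.7%), against 88.1% of all genes at the level, and at least 2-fold in 3. Values were higher in Tc17 for 72 and lower for 32, with a median difference of 0.11. All genes at the level had a median of 0.0088, with 51.7% above 0. Among the 95 genes at the level in both groups 63 were above 0 (66.3%), with a median of 0.09, where all such genes had 51.0% and 0.0047. With each sample left out in turn the median of the 104 ran from 0.07 (without Tc17 sample 1) to 0.15 (without Tc17 sample 2). The 3 Tc17 arrays lay entirely above the 3 Tc1 arrays for 36 genes (34.6%) and entirely below for 15 (14.4%), against 24.7% and 21.7% of genes at the level and 11.8% and 11.9% of all probe sets. These counts include 7 higher from the 9 genes that reached the level in Tc17 alone. For the 95 genes at the level in both groups they were 29 (30.5%) and 15 (15.8%), against 22.5% and 20.9% of all such genes. The technical arrays repeat a sample, so this separation rests on 2 samples per group.

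**Figure D2:**
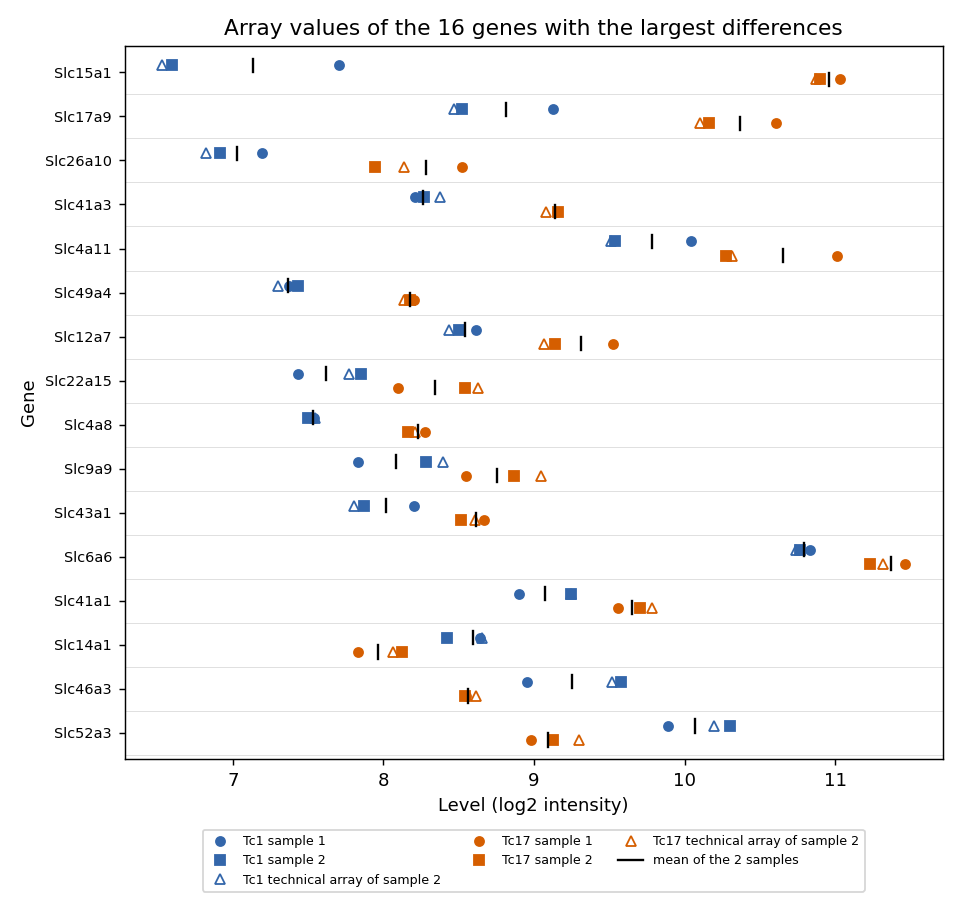
Level in log2 intensity (horizontal axis) on each of the 6 arrays for the 16 genes with the largest differences; colour gives the group, filled circles sample 1, filled squares sample 2, open triangles the technical arrays and black ticks the mean of 2 samples. Slc15a1 has the widest gap, while Slc41a3, Slc49a4 and Slc4a8 have small gaps and tight arrays.

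The 20 amino acid and peptide carriers held the gene with the largest difference and otherwise few. Besides Slc15a1 none passed, 11 of the 20 differences were above 0 (55%) and 9 below, and the median was 0.05. Among all genes at the level 51.7% were above 0. Slc15a1, Slc43a1 and Slc38a6 reached the level in Tc17 alone, which fixes the sign of their differences. Slc7a5 measured 13.11, 13.03 and 13.00 in Tc1 and 12.93, 12.76 and 12.82 in Tc17. All its Tc17 arrays lay below all Tc1 arrays, by a mean of only 0.21 (difference −0.21 ± 0.09 SE, n = 2 per group, limma adjusted p = 0.445; 95% interval −0.44 to 0.03). Its partner Slc3a2 measured 12.86, 12.83 and 12.84 against 12.74, 12.57 and 12.69, with a difference of −0.16 (interval −0.37 to 0.05). Both chains were bright in both states, and neither difference passed. Intervals here and below are limma's, at 95% and not adjusted for the number of genes.

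Carriers of glutamine and other neutral amino acids had small differences as well. Slc1a5, the exchanger ASCT2, had a difference of 0.06 (interval −0.31 to 0.43), and its other probe set −0.10. The sodium-coupled Slc38a1 had −0.08 (−0.27 to 0.11) and Slc38a2, which is induced by amino acid shortage, −0.16 (−0.39 to 0.06). Slc7a1, the importer of arginine and lysine, had −0.07 (−0.45 to 0.31). Each of these intervals left out a 2-fold change. Slc43a1, the neutral amino acid carrier LAT3, measured 8.20, 7.87 and 7.81 in Tc1 and 8.67, 8.52 and 8.61 in Tc17. It reached the level in Tc17 alone. Its groups did not overlap, and its difference of 0.60 was the largest of the uncalled amino acid carriers (limma adjusted p = 0.199). Other amino acid carriers of the cell surface had smaller differences: Slc7a6, which trades cationic for neutral amino acids, 0.24, the serine carrier Slc1a4 0.25 and the relative of LAT3, Slc43a2, 0.15. In all 3 the arrays overlapped, and in Slc1a4 Tc17 sample 1 stood alone at 9.67. Slc7a3, another carrier of cationic amino acids, had −0.32, with Tc17 sample 1 at 8.55 and sample 2 at 7.88 and 7.98. Slc7a11, the cystine carrier, lay below the level at 6.90 in Tc1 and 6.77 in Tc17.

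Lysosomal amino acid carriers were measured by several genes. Slc38a9, an arginine sensor on the lysosome, had a difference of 0.22, Slc36a1 −0.06 and Slc66a1 0.19. Slc38a7, which exports glutamine from lysosomes, measured 8.21, 8.31 and 8.15 in Tc1 and 8.70, 8.59 and 8.61 in Tc17, 0.42 apart (limma adjusted p = 0.126, not called). Slc36a4 had −0.24, while its other probe set had 0.31, so its sign depended on the probe set. Slc15a4, a peptide and histidine carrier of endolysosomes, had −0.04.

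**Figure D3:**
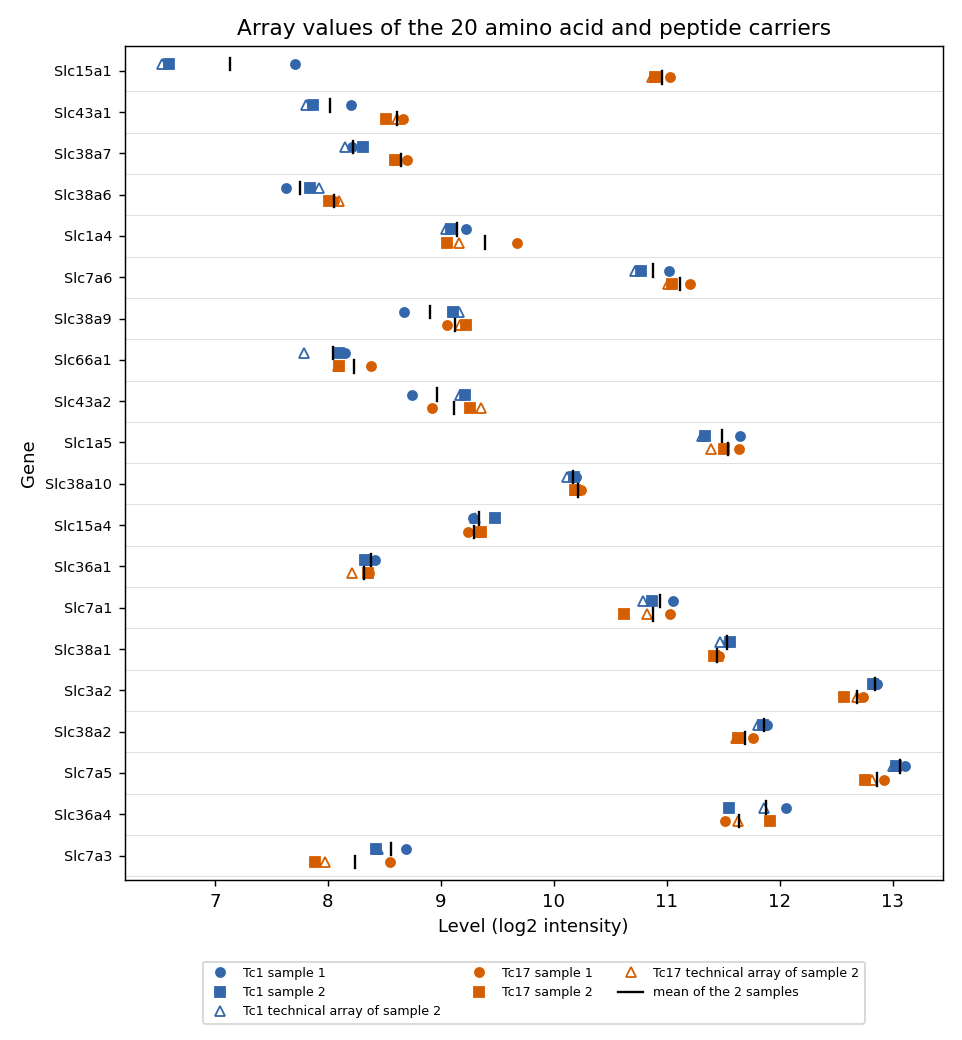
Level in log2 intensity (horizontal axis) on each array for the 20 amino acid and peptide carriers, ordered by their difference, with symbols as for the array values of the largest differences. Slc15a1 is the one gene with a gap of several log2 units; Slc7a5 and Slc3a2 lie near 13 in both groups.

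Among ion carriers of volume and pH, Slc4a8 was the one called. The cation-chloride cotransporters, which set cell volume and chloride, gave 3 of 3 differences above 0 and 0 calls, with a median of 0.40, beside 0.11 for all 104 genes. Slc12a7, the potassium-chloride exporter KCC4, measured 8.61, 8.50 and 8.43 in Tc1 and 9.52, 9.14 and 9.07 in Tc17. The arrays were separate, and the difference of 0.77 missed the threshold (limma adjusted p = 0.159). Slc12a2, the sodium-potassium-chloride importer NKCC1, had 0.40 (adjusted p = 0.363) and Slc12a4, or KCC1, 0.27 with overlapping arrays. In the class of bicarbonate, sulphate and other anions all 3 were above 0: Slc4a8, called, Slc26a10 and the sulphate carrier Slc26a2 (0.21). Slc26a10 measured 7.19, 6.92 and 6.82 against 8.52, 7.94 and 8.14, 2.38-fold higher, with a limma adjusted p of 0.0982. Slc26a10 and Slc4a8 reached the level in Tc17 alone, which fixes the sign of their differences. Slc4a11, a relative of the bicarbonate carriers that is not thought to carry bicarbonate, measured 10.04, 9.54 and 9.51 against 11.01, 10.27 and 10.32. The samples of each group lay apart, and the difference was 0.87 (limma adjusted p = 0.333, not called). Of the sodium-proton exchangers, Slc9a9 of endosomes had 0.67 (0.325), at 7.83, 8.28 and 8.39 in Tc1 and 8.55, 8.87 and 9.04 in Tc17, and the Golgi exchanger Slc9a8 0.21 (0.35). In both the groups were separate by array, and neither was called.

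Zinc carriers, the Slc39 importers and Slc30 exporters, gave 0 calls among 16 genes, with a median difference of 0.035. Values at the ends of the range belonged to 2 importers. Slc39a14, which also carries iron and manganese, measured 9.84, 9.57 and 9.54 in Tc1 and 10.36, 10.09 and 10.16 in Tc17 (difference 0.55, limma adjusted p = 0.224). Slc39a10 measured 10.11, 9.79 and 9.68 in Tc1 and 9.48, 9.33 and 9.40 in Tc17 (difference −0.50, limma adjusted p = 0.277). In each the groups did not overlap, in opposite directions, and neither passed. Slc39a1, an importer at the cell surface, had 0.27 (adjusted p = 0.315), and Slc30a7, which loads zinc into the Golgi, −0.21 (0.379). Slc30a4, a zinc carrier of vesicles, had 0.03 (interval −0.20 to 0.26). Slc39a6, a surface importer, and Slc39a8 had −0.05 and −0.04, and Slc39a7, which releases zinc from the endoplasmic reticulum, 0.009. Of the 11 Slc39 genes 8 (72.7%) had differences above 0 and of the 5 Slc30 genes 2 (40%). For all 104 genes the share was 69.2%, and for all genes at the level 51.7%.

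Of the 7 carriers of iron, copper, magnesium and haem, Slc41a3 was the one called. Slc11a2, the iron and manganese importer DMT1, measured 9.89, 10.04 and 10.06 in Tc1 and 9.52, 9.42 and 9.60 in Tc17. Its arrays were separate, and the difference was −0.46 (limma adjusted p = 0.136, not called). The haem carrier Slc48a1 had −0.18 and the copper importer Slc31a1 −0.19, neither called, and both had all Tc17 arrays below all Tc1 arrays. Slc31a2, a relative that releases copper from endosomes, had 0.41 with overlapping arrays (adjusted p = 0.509). Slc40a1, the iron exporter ferroportin, lay below the level at 5.18 and 5.19.

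**Figure D4:**
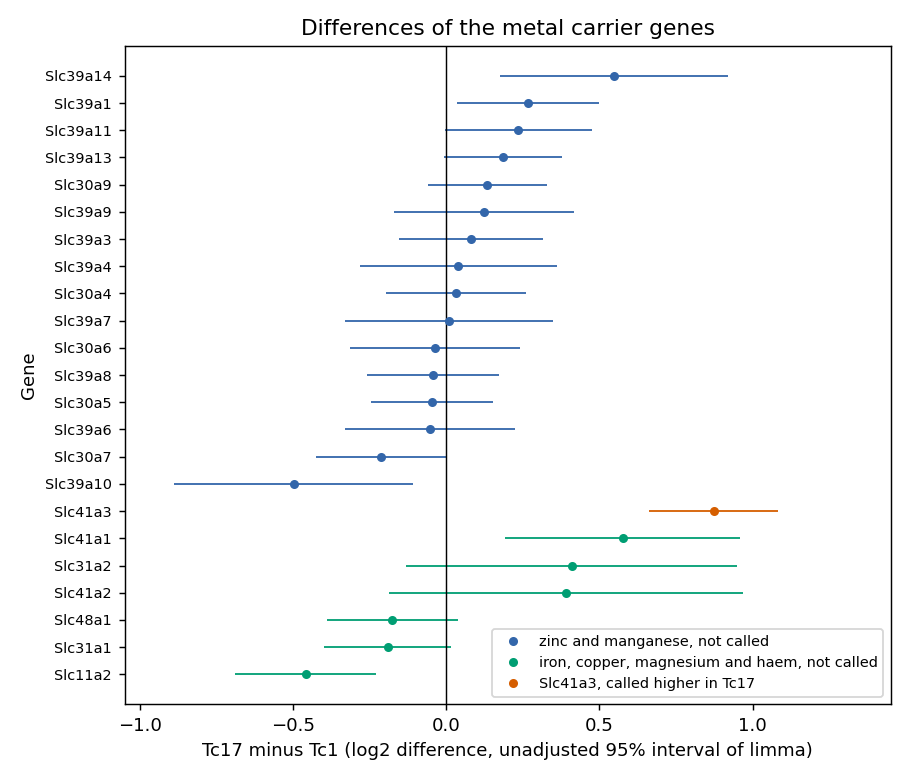
Tc17 minus Tc1 log2 difference (horizontal axis) of the 16 zinc and manganese carriers and the 7 carriers of iron, copper, magnesium and haem, with limma's unadjusted 95% intervals. Slc41a3 is the called gene; Slc39a10 and Slc11a2 have intervals below 0, and Slc39a14, Slc39a1 and Slc41a1 intervals above 0, without a call.

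The carriers with the largest differences below 0 were of mixed kinds, and none was called. Slc52a3, a riboflavin importer, measured 9.89, 10.30 and 10.19 in Tc1 and 8.98, 9.12 and 9.30 in Tc17. The groups were separate, with a difference of −0.97 ± 0.16 (SE, n = 2 per group), 1.96-fold lower intensity, and a limma adjusted p of 0.0966. The other vitamin carriers were near 0, with Slc19a1, the reduced folate carrier, at 0.13, the thiamine carrier Slc19a2 at 0.09 and the ascorbate carrier Slc23a2 at −0.06. Slc46a3, a lysosomal carrier, had −0.68 (adjusted p = 0.284), with 8.95 in Tc1 sample 1 and 9.58 and 9.52 on the arrays of sample 2. The urea carrier Slc14a1 had −0.63 (0.129). Slc37a3, a relative of the carrier of glucose 6-phosphate, had −0.53 (0.145).

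Among carriers of organic ions, Slc17a9 stood highest. It loads ATP into vesicles and is assigned to internal membranes. It measured 9.13, 8.52 and 8.47 in Tc1 and 10.60, 10.16 and 10.10 in Tc17, 2.94-fold higher, and missed the threshold (difference 1.56 ± 0.27 SE, n = 2 per group, limma adjusted p = 0.11). Slc6a6, the taurine importer, measured 10.83, 10.76 and 10.74 against 11.46, 11.23 and 11.32 (difference 0.58, limma adjusted p = 0.108). In both genes the groups did not overlap. Slc22a5, the carnitine importer, had a difference of 0.02. The sialic acid exporter of lysosomes, Slc17a5, had 0.31 (adjusted p = 0.385) and the creatine importer Slc6a8 0.26 (0.556).

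Lipid and nucleoside carriers were measured by 9 genes and gave no call. Slc44a2, a choline carrier-like protein, measured 11.69, 11.68 and 11.62 in Tc1 and 12.01, 11.99 and 12.01 in Tc17. The groups were separate and differed by 0.33 (limma adjusted p = 0.165, not called). Slc27a1, a fatty acid uptake protein, had 0.47 (adjusted p = 0.216). The nucleoside carrier of lysosomes, Slc29a3, had 0.52 (0.186), and −0.05 on a second, dim probe set. At the cell surface, Slc29a1 had 0.16 (interval −0.22 to 0.53) and the purine base carrier Slc43a3 0.03 (−0.16 to 0.22). The phosphate importers Slc20a1 and Slc20a2 had −0.22 (−0.57 to 0.13) and 0.11 (−0.20 to 0.42).

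The 18 carriers of nucleotide sugars, acetyl-CoA and sugar phosphates, which serve the Golgi and endoplasmic reticulum, had a median of 0.05 and 0 calls. Among them Slc35a4 had 0.11, and −0.01 on its other probe set, and Slc33a1, the acetyl-CoA carrier, 0.39 (adjusted p = 0.22). Slc35b4, a carrier of UDP-xylose and UDP-N-acetylglucosamine, measured 9.65, 9.91 and 9.87 in Tc1 and 10.12, 9.99 and 10.19 in Tc17, 0.33 higher and not called. Slc35d1, which carries UDP-glucuronic acid, measured 9.10, 9.15 and 9.16 against 8.94, 8.81 and 8.82 (difference −0.25, limma adjusted p = 0.321). Slc35c1, the GDP-fucose carrier, had 0.02 and Slc37a4, the carrier of glucose 6-phosphate, 0.08. Of 9 genes with no assigned substrate 1 was called, Slc49a4. Slc35g1 in that class had 0.11, Slc10a7 0.36 (adjusted p = 0.199) and Slc22a15 0.72 (0.276), the last at 7.43, 7.85 and 7.77 in Tc1 and 8.10, 8.54 and 8.63 in Tc17. Slc49a4 and Slc22a15 reached the level in Tc17 alone, a way of passing that requires a difference. Among the non-carriers Slc9a3r1 had −0.13.

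**Figure D5:**
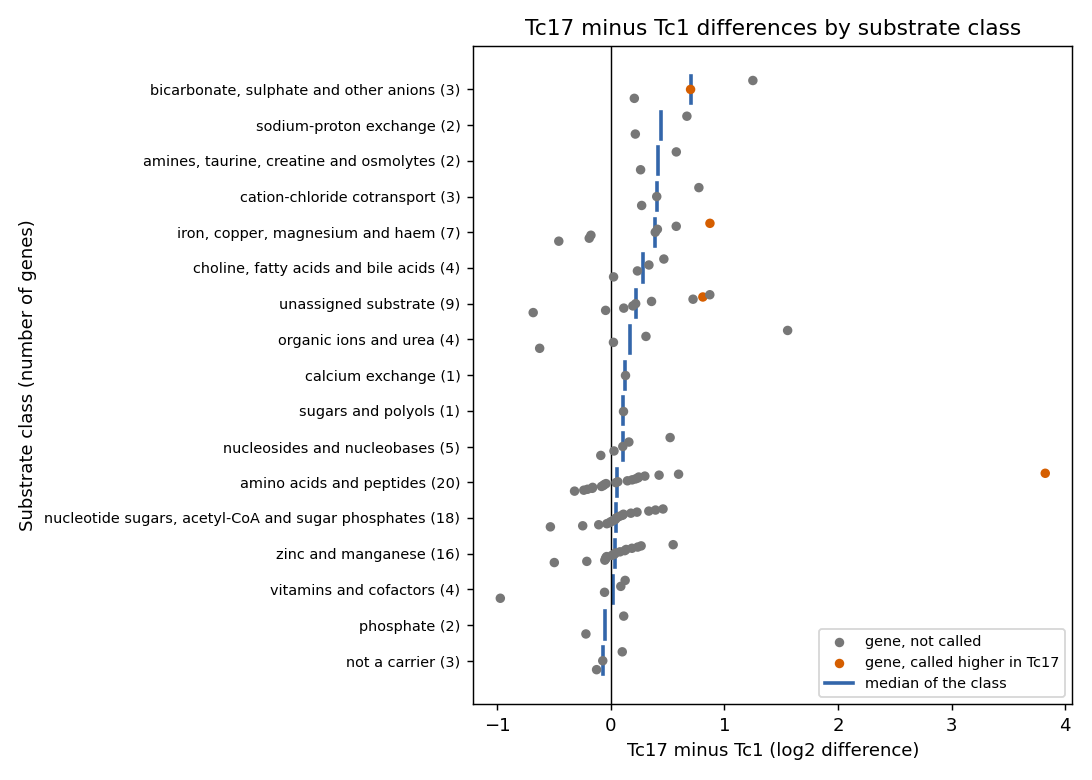
Tc17 minus Tc1 log2 difference (horizontal axis) of each of the 104 genes by substrate class (vertical axis, number of genes in brackets), with blue bars for class medians and orange points for the 4 called genes. The 3 large classes have medians between 0.035 and 0.052, and medians of classes with 1 to 4 genes rest on those few genes.

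By membrane, the plasma membrane genes had 2 calls of 42 and a median of 0.10, and the internal membrane genes 1 call of 46 and a median of 0.11. All 3 of these called genes reached the level in Tc17 alone, and the share called higher among all genes at the level was 2.08%. Expressed genes of the 3 families left out by the rule, 38 of 72, had 1 call and a median of 0.04. That call was Slc2a6, a lysosomal sugar carrier relative, at 6.61 in Tc1 and 9.11 in Tc17 (5.66-fold, limma adjusted p = 0.0479). Slc2a6 too reached the level in Tc17 alone, a way of passing that requires a difference. These counts were not tested against each other.

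Genes that work with the carriers were counted by list, with no level rule. Of all 22180 genes 0.992% were called higher and 0.591% lower, and 45.8% had differences above 0. Of 17 measured genes of the amino acid starvation response and serine synthesis 0 passed, 12 differences lay below 0 and the median was −0.11; Asns, asparagine synthetase, had −0.17. Of 18 genes that sense amino acids for TORC1, 1 rose: Rragd, which encodes a small GTPase that brings TORC1 to the lysosome. It measured 7.56, 7.75 and 7.82 in Tc1 and 9.22, 9.30 and 9.46 in Tc17, 3.08-fold higher (limma adjusted p = 0.0166). The median difference of the 18 was 0.06. Among 9 genes of the carbonic anhydrase family, whose active enzymes make bicarbonate, Car5b, a mitochondrial form, fell. It measured 10.32, 10.69 and 10.65 in Tc1 and 8.29, 8.50 and 8.31 in Tc17 (difference −2.15, limma adjusted p = 0.0134). Of the 9 differences 5 were above 0 and 4 below, with a median of 0.27. Of 24 Golgi glycosylation enzymes Mgat5, which branches N-glycans, rose 3.93-fold (adjusted p = 0.0377) and the sialyltransferase gene St3gal6 fell by 1.95 on the log2 scale (0.0363). The median of the 24 was −0.14. No gene passed among 6 metallothionein and metal response genes (median −0.18), 17 of iron handling (−0.03), 11 sodium and calcium pumps (−0.07), 11 of the WNK and volume-regulated chloride list (−0.17) or 19 ABC transporters (0.09). Metallothionein Mt1 and Mt2 had differences of −0.15 and −0.21, Mt3 −1.88 (adjusted p = 0.0739), and the transferrin receptor gene Tfrc 0.45 (adjusted p = 0.23).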

How the data were processed

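The data were 6 single-colour Affymetrix arrays. The authors deposited 1 log2 intensity per probe set and array. Per the submitters' processing notes RMA and Partek were used, with no version or role given. RMA corrects background, normalizes by quantiles and summarizes probes. Which arrays were normalized together was not given in the sources used here, and detection calls were not used.

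The technical array was averaged with sample 2. All 41345 probe sets were fitted with limma 3.58.1 in R 4.3.3 (lmFit, eBayes; 2 residual and 2.63 prior degrees of freedom), with Benjamini-Hochberg adjustment over all of them and a threshold of 0.05. Single-symbol probe sets gave 22180 genes. Of the 104 genes, 8 had a second probe set, none of them called.

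The genes, substrate classes, companion lists and motifs were chosen with earlier results of these data known, and class and membrane were assigned by hand from general knowledge. Named were called genes, in each class of 3 or more the brightest and the largest uncalled difference, 19 preset genes where measured, and neighbours of the level; Slc4a7, preset too, was not analysed here. All other genes given with values were named after their values were seen. RefSeq promoter windows matched 82 of the 104 genes. The fit was tested on simulated data. Figures used matplotlib 3.10.9.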

Additional observations from a re-analysis of the deposited data

How the results depend on the processing

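The precision is limited by 2 samples per group. With each sample left out, where 1 group has a lone sample assumed to vary like the other group, 0 to 1 Slc genes were called higher and 0 lower, with 48 to 125 probe sets called in all. Without Tc1 sample 1 or Tc1 sample 2 the gene was Slc15a1. Reading the technical array as a repeat of sample 1 gave 12 higher and 4 lower, with 1581 probe sets. Taking the 6 arrays as separate samples gave 17 higher and 5 lower, with 2318. The replicate number as a block (replicate block) gave 14 higher, Slc4a11 among them, and 2 lower, with 1535. The labels do not say that the numbers pair the samples; deviations of same-numbered samples from their group means correlated at 0.31 over probe sets. Averaging the probe sets of each gene, and fitting over genes, gave 7 higher and 1 lower, Slc52a3. With a mean over all 6 arrays of at least 8 as the rule, 2 were higher (Slc15a1 and Slc41a3) of 99, and with a group mean of at least 9, 2 of 70. Restricting the fit to probe sets with a mean of at least 6 gave 650 called and 4 higher. A group mean of 7 and a second quantile normalization left 4 higher; 3 were higher without the technical arrays, with centred arrays and with trended, robust moderation.

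Of 507 values of 39 named genes, 19 changed sign, in 8 genes whose main difference was at most 0.16 in size. Without a sample in turn Slc19a1 ran from −0.041 to 0.29, Slc1a5 from −0.10 to 0.22, Slc22a5 from −0.046 to 0.090, Slc29a1 from −0.028 to 0.34, Slc30a4 from −0.041 to 0.10, Slc35a1 from −0.010 to 0.087 and Slc7a1 from −0.22 to 0.088. Slc1a5 had −0.020 with the mean of its probe sets. Slc22a5 had −0.014, −0.0070 and −0.023 with the technical array given to sample 1, separate arrays and quantile normalization. Slc30a4 had −0.0029 and −0.0086, and Slc43a3 −0.0011 and −0.0030, without the technical arrays and with them given to sample 1. Slc35a1 had −0.010 after quantile normalization. The cause of these changes was not tested.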

Other observations

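Among the 185 Slc genes below the level, 1 was called. Slc15a2, which encodes PepT2, the other proton-coupled peptide carrier of the family of Slc15a1, measured 5.76, 5.78 and 5.72 in Tc1 and 6.47, 6.38 and 6.54 in Tc17 (log2 difference 0.71, limma adjusted p = 0.0352). Its Tc1 values lay below every array median, so no fold is given. Slc15a3, a peptide and histidine carrier of lysosomes, was also below the level and not called: 5.16, 5.22 and 4.89 in Tc1 and 8.23, 6.67 and 6.76 in Tc17 (difference 2.36, limma adjusted p = 0.162), with Tc17 sample 1 well above sample 2. Slc15a4, at the level, had −0.04.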
